A study of Mus musculus with 8 samples.

Results

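Mybl1, Mybl2, Taf7l, Tbpl1, Brdt, Rfx1, Rfx2, Rfx4, Crem and Tcfl5 encode regulators of transcription, most of them known for a part in mouse spermatocytes or spermatids. They were taken by gene symbol, as Mybl1 and other regulators of pachytene and postmeiotic gene activation, which gave 10 of the 23235 symbols in the tables. The 10 genes all had an FPKM (fragments scaled to transcript length and to mapped reads) above 1 in at least 1 library, as did 15899 symbols in all, and were tested with them. Rfx1 and Mybl2 stayed below 1 in both WT PD libraries, and Rfx4 was above 1 in WT LZ in 1 library.

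Germ cells that leave the leptotene and zygotene stages of meiosis switch on a large pachytene program, and many of those transcripts are used only after meiosis, in spermatids. A-MYB (Mybl1) and the bHLH factor TCFL5 act on promoters in pachytene cells, the bromodomain protein BRDT binds acetylated histones there, and RFX2 and CREM activate genes of round spermatids. Testes also use relatives of general transcription factors, TAF7L in place of TAF7 in TFIID and TBPL1 (also called TRF2) beside TBP.

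The data were RNA-seq libraries of sorted spermatocytes from C57BL/6 males aged 6 weeks. Cells at the leptotene and zygotene stages (LZ) and at the pachytene and diplotene stages (PD) were sorted by Hoechst and propidium iodide staining. WT males were compared with Cnot4 fl/fl;Stra8-Cre males, called Cnot4-null here, in which Cre under the Stra8 promoter deletes exon 2 of Cnot4 in germ cells. Cnot4 encodes a subunit of the CCR4-NOT complex, which removes poly(A) tails. The 4 groups, WT LZ, WT PD, Cnot4-null LZ and Cnot4-null PD, had 2 libraries each. In bulk libraries such as these, fewer cells of a type and less RNA per cell cannot be told apart.

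The targeted gene itself, Cnot4, was listed at FPKM 36.03 and 34.9 in WT LZ, 76.6 and 73.1 in WT PD, 43.2 and 34.6 in Cnot4-null LZ, and 65.9 and 53.5 in Cnot4-null PD. The Cnot4-null PD libraries lay below both WT PD libraries, and the LZ groups overlapped. Neither genotype comparison passed the limma test, with -0.33 (SE 0.20, adjusted p = 0.192) at PD and 0.12 (SE 0.20, adjusted p = 1) at LZ. A single FPKM per gene cannot show the loss of exon 2, so these levels do not test the genotype, and the groups below are named as the libraries were labelled.

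The stage labels were compared with marker genes. Pachytene and diplotene markers, 8 genes led by the lactate dehydrogenase gene Ldhc in all but Cnot4-null LZ replicate 2, where Hspa2 led, had summed FPKM of 237 and 376 in WT LZ, 13395 and 12454 in WT PD, 257 and 102 in Cnot4-null LZ, and 6349 and 2161 in Cnot4-null PD. Both WT PD libraries were the highest and all 4 LZ libraries the lowest. Leptotene and zygotene markers, 8 genes led by the synaptonemal complex gene Sycp3, summed to 1148 and 1407 in WT LZ, 941 and 967 in WT PD, 2613 and 1429 in Cnot4-null LZ, and 791 and 478 in Cnot4-null PD. There the Cnot4-null LZ libraries were the highest and the Cnot4-null PD libraries the lowest, in a sum that Sycp3 led in every library. Single genes of the list did not all follow the sum. At PD, 4 of the 8 were higher in Cnot4-null than in WT by limma and 2 were lower. Stra8 had mean FPKM 7.59 in WT PD and 188 in Cnot4-null PD, and Sycp3 had 792 and 366. Spermatid markers were present in every group, and their 8 genes, led by the protamine gene Prm1 in most libraries, summed to 1849 and 1547 in WT LZ, 433 and 279 in WT PD, 4083 and 728 in Cnot4-null LZ, and 16155 and 7549.9 in Cnot4-null PD. The Cnot4-null PD libraries held more of them than any other library, and none of the 8 genes was at 0 in any library.

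The Cnot4-null PD libraries also stood apart in transcripts of somatic cells. Leydig cell markers, 6 genes led by the hormone gene Insl3, summed to FPKM 16.8 and 9.89 in WT LZ, 115 and 7.07 in WT PD, 10.8 and 19.02 in Cnot4-null LZ, and 10021 and 22204 in Cnot4-null PD. Lhcgr, the receptor that defines Leydig cells, was listed at 0 in 5 of the 6 other libraries and at 4.03 and 8.85 in Cnot4-null PD. All 6 Leydig markers were higher in Cnot4-null PD than in WT PD by limma, with a median log2 change of 5.91. Peritubular and vascular markers, 4 genes led by Acta2 in both Cnot4-null PD libraries, summed to 0.295 and 0.560 in WT LZ, 1.25 and 1.08 in WT PD, 0.595 and 0.246 in Cnot4-null LZ, and 46.5 and 228 in Cnot4-null PD. Of the 3 tested, all 3 were higher in Cnot4-null PD than in WT PD. Macrophage markers, 6 genes led by Lyz2 or Cd68, summed to 25.1 and 0.915 in WT LZ, 1.83 and 1.55 in WT PD, 6.40 and 1.76 in Cnot4-null LZ, and 18.5 and 89.7 in Cnot4-null PD, with 4 of 6 higher by limma, and 0 called after quantile normalization. Sertoli markers, 7 genes found of 8 and led by Clu, summed to 65.7 and 58.9 in WT LZ, 8.83 and 16.5 in WT PD, 6.78 and 10.1 in Cnot4-null LZ, and 99.9 and 205 in Cnot4-null PD, with 3 of 5 tested higher, and 1 after quantile normalization. Fshr, the hormone receptor of Sertoli cells, was listed at 0 in 7 of the 8 libraries, and Amh in 7. Spermatogonial markers, 8 genes led by Uchl1 outside WT PD, summed to 729 and 687 in WT LZ, 68.9 and 83.8 in WT PD, 472 and 659 in Cnot4-null LZ, and 359.8 and 468 in Cnot4-null PD, and the WT PD libraries were the lowest. A marker sum does not separate RNA of other cells from RNA of the sorted spermatocytes. The part of these markers in the results on the transcription regulators was not tested.

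**Figure D1:**
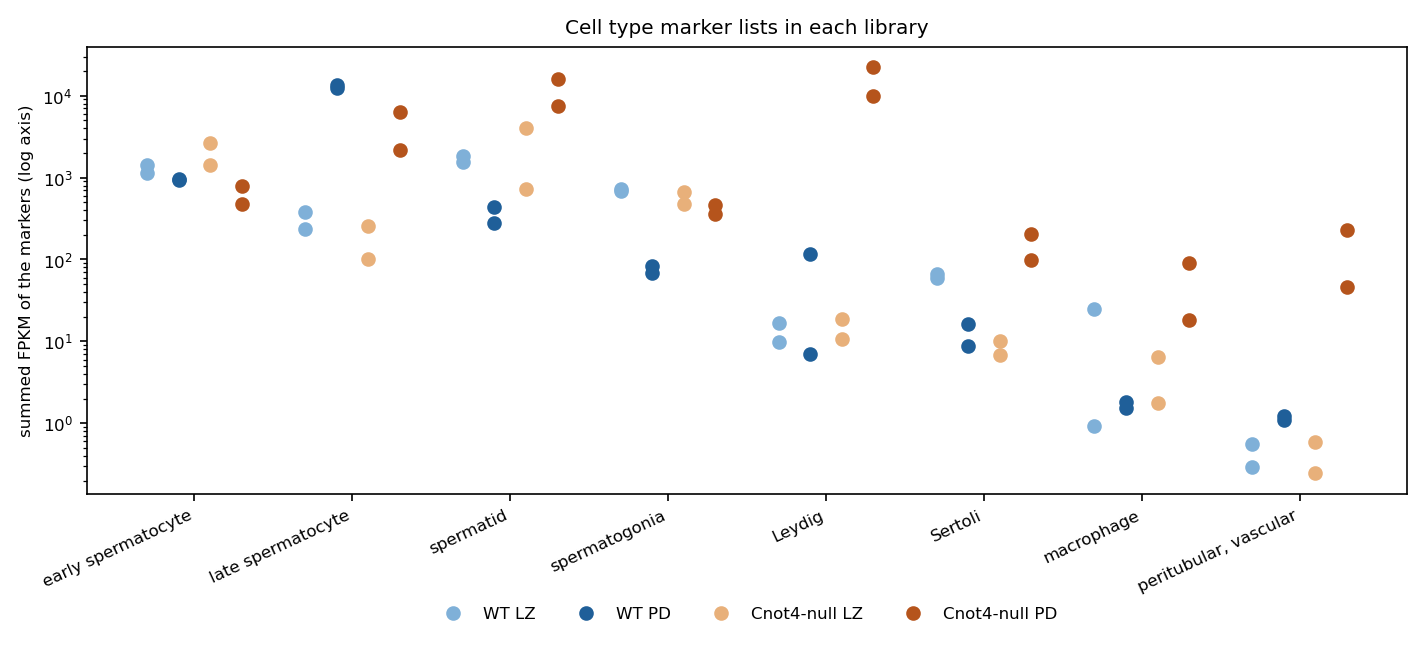
Summed FPKM (log axis) of each list of cell type markers, 1 point per library, coloured by group. Leydig, Sertoli and peritubular and vascular markers were highest in both Cnot4-null PD libraries, with Leydig sums of 10021 and 22204.

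The whole distribution of values shifted as well. Over the 15899 tested genes the median log2 change was 0.66 for Cnot4-null against WT at PD, -0.32 for PD against LZ in WT, 0.19 for PD against LZ in Cnot4-null and 0.00 for Cnot4-null against WT at LZ, where it was 0.02 after rescaling to the same median. At PD the shift between genotypes became -0.10 with equal quantiles (quantile normalization), -0.21 after rescaling to the same median and 0.73 after rescaling to the same summed FPKM. Of the genes called at PD, 78.3% were higher in Cnot4-null, against 41.01% with equal quantiles and 36.9% with equal medians. All log2 changes below are differences of log2(FPKM + 1), which understates the change of genes of low FPKM, and those of the 10 regulators between genotypes at PD are also given relative to the median of all genes.

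Promoters of the regulators, 250 bases before to 50 after the start, were read from RefSeq (GRCm38.p6) and found again by exact match in mm9, the build of the expression tables. They were given for 8 of the 10 genes. Promoters of Mybl1 and Crem were not analysed here. Each was searched on both strands for the letters that these factors are known to bind: CAGTTG for MYB proteins, TGACGTCA and its part TGACG for CREM, GTTGCC as part of the X-box of RFX proteins, and the E-box CACGTG for bHLH proteins. Of all 32851 promoters of that length, 13.7% held CAGTTG, 1.79% TGACGTCA, 20.8% TGACG, 12.5% GTTGCC and 7.15% CACGTG. The 6 printed with their genes below hold the MYB, X-box or E-box letters. No promoter of the 8 genes held TGACGTCA, and those of Mybl2 and Tbpl1 held none of the letters searched. A match is only a description of the sequence.

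Of the MYB pair, Mybl1 (chr1:9657496-9690290, minus strand, mm9) encodes A-MYB, the pachytene activator of piRNA precursor and many meiotic genes, and Mybl2 (chr2:162880423-162910424, plus strand) encodes B-MYB, which drives cell cycle genes in dividing cells. Mybl1 had FPKM 2.22 and 3.03 in WT LZ, 9.39 and 10.3 in WT PD, 5.35 and 3.24 in Cnot4-null LZ, and 8.60 and 3.38 in Cnot4-null PD. Both WT PD libraries lay above all others, the LZ groups did not overlap, and the Cnot4-null PD libraries lay on either side of the Cnot4-null LZ library of 5.35. Mybl1 rose from LZ to PD in WT (log2 change 1.59, SE 0.41, adjusted p = 0.0123, 3.75-fold between mean FPKM). That call was lost without WT LZ replicate 1 (adjusted p = 0.0750), without WT PD replicate 1 (adjusted p = 0.0620) and without WT PD replicate 2 (adjusted p = 0.0771). In Cnot4-null its change was 0.32 (SE 0.41, adjusted p = 0.545). At PD the difference between genotypes was -0.74 (SE 0.41, adjusted p = 0.160), or -1.40 relative to the median of all genes. It passed the test without Cnot4-null PD replicate 1, at -1.31 with an adjusted p of 0.0236, and also with equal quantiles (-1.82, adjusted p = 0.0217) and equal medians (-2.005, adjusted p = 0.00339). Without Cnot4-null PD replicate 2 it was -0.17 (adjusted p = 0.691). The interaction was -1.27 (SE 0.58, adjusted p = 0.134), and it passed the test with equal quantiles (-2.34, adjusted p = 0.0496), with equal medians (-2.56, adjusted p = 0.00972) and without Cnot4-null PD replicate 1 (-1.83, adjusted p = 0.0242).

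Mybl2 had FPKM 12.8 and 10.3 in WT LZ, 0.805 and 0.771 in WT PD, 10.5 and 10.8 in Cnot4-null LZ, and 9.003 and 9.13 in Cnot4-null PD. The WT PD libraries stood alone at the bottom, and the other 6 libraries lay close together. Mybl2 fell from LZ to PD in WT (log2 change -2.81, SE 0.22, adjusted p = 5.98e-05), from a mean of 11.6 ± 1.71 (SD, n = 2) to 0.788 ± 0.0241 (SD, n = 2). In Cnot4-null the same step gave -0.21 (SE 0.22, adjusted p = 0.467), which passed the test with equal quantiles (-0.69, adjusted p = 0.0464) and with equal medians (-0.73, adjusted p = 0.0314). At PD it was higher in Cnot4-null by 2.49 (SE 0.22, adjusted p = 2.82e-04), 1.83 relative to the median, and 11.5-fold between mean FPKM. The genotype effect differed between the stages, with an interaction of 2.60 (SE 0.32, adjusted p = 0.00241).

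Of the general factors, Taf7l (chrX:130994657-131011029, minus strand) encodes the germ cell relative of the TFIID subunit TAF7. It was listed at FPKM 383 and 430.4 in WT LZ, 4.88 and 4.34 in WT PD, 518 and 392 in Cnot4-null LZ, and 95.2 and 109.8 in Cnot4-null PD. The LZ groups overlapped, the WT PD libraries were below 5, and the Cnot4-null PD libraries lay between the other groups with no overlap. From LZ to PD it fell in WT (log2 change -6.18, SE 0.21, adjusted p = 1.66e-05) and in Cnot4-null (log2 change -2.13, SE 0.21, adjusted p = 4.99e-04), by 88.2-fold and 4.44-fold between mean FPKM. At PD the Cnot4-null level of 103 ± 10.4 (SD, n = 2) was 22.2 times the WT level of 4.61 ± 0.386 (SD, n = 2), a log2 change of 4.20 (SE 0.21, adjusted p = 9.49e-05), or 3.54 relative to the median. The interaction of genotype and stage was 4.05 (SE 0.29, adjusted p = 8.25e-04), the largest of the 10 genes.
The promoter of Taf7l at chrX:131010980-131011279, minus strand, mm9, is shown since this gene had the largest change of the 10 in WT. Capitals mark CAGTTG, which begins at base -160 from the start, and CACGTG, at base -49.
Taf7l: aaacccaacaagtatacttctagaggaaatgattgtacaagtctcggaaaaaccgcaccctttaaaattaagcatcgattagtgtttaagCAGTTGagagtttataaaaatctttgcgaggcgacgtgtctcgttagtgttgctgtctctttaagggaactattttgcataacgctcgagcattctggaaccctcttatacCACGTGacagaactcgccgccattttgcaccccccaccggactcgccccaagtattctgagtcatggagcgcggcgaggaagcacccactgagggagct

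Tbpl1 (chr10:22423685-22451744, minus strand) encodes the TBP-like factor that works with TFIIA on spermatid genes. Its FPKM was 29.3 and 36.97 in WT LZ, 334 and 335 in WT PD, 33.1 and 33.7 in Cnot4-null LZ, and 127 and 57.95 in Cnot4-null PD. The WT PD libraries differed by less than 1 FPKM and were the highest, all 4 LZ libraries lay below 40, and the Cnot4-null PD libraries were spread between these levels. Tbpl1 rose from LZ to PD in WT (log2 change 3.31, SE 0.35, adjusted p = 1.76e-04) and in Cnot4-null (log2 change 1.34, SE 0.35, adjusted p = 0.0173). The second call was lost without Cnot4-null LZ replicate 1 (adjusted p = 0.0893) or replicate 2 (adjusted p = 0.0831) and after rescaling to the same median (0.75, adjusted p = 0.113). It was also lost with no filter on low values (adjusted p = 0.0611) and with only the 4 Cnot4-null libraries in the fit (adjusted p = 0.0850). At PD it was lower in Cnot4-null, with a log2 change of -1.95 (SE 0.35, adjusted p = 0.00367), -2.61 relative to the median, so that its mean was 27.7% of WT. The interaction was -1.97 (SE 0.49, adjusted p = 0.0242). Without 1 library of any group other than Cnot4-null PD the interaction missed the threshold, with adjusted p from 0.0574 (without WT LZ replicate 2) to 0.0940 (without WT PD replicate 2).

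Brdt (chr5:107760178-107816077, plus strand) encodes the testis member of the BET family, a reader of acetylated histones needed for meiotic and postmeiotic gene expression. FPKM values of Brdt were 21.7 and 36.00 in WT LZ, 191 and 176 in WT PD, 27.1 and 28.3 in Cnot4-null LZ, and 103 and 60.1 in Cnot4-null PD. The LZ groups overlapped, and Cnot4-null PD lay between LZ and WT PD. Brdt rose from LZ to PD in WT (log2 change 2.67, SE 0.32, adjusted p = 3.12e-04) and in Cnot4-null (log2 change 1.47, SE 0.32, adjusted p = 0.00881). The second call was lost without Cnot4-null LZ replicate 1 (adjusted p = 0.0580) or replicate 2 (adjusted p = 0.0510) and after rescaling to the same median (adjusted p = 0.0536). At PD the Cnot4-null mean was 44.4% of WT (log2 change -1.21, SE 0.32, adjusted p = 0.0167, -1.87 relative to the median). The interaction was -1.20 (SE 0.45, adjusted p = 0.0824) and missed the threshold.
Its promoter, at chr5:107759963-107760262, plus strand, is shown for the E-box, in capitals, that begins at base -78 from the start.
Brdt: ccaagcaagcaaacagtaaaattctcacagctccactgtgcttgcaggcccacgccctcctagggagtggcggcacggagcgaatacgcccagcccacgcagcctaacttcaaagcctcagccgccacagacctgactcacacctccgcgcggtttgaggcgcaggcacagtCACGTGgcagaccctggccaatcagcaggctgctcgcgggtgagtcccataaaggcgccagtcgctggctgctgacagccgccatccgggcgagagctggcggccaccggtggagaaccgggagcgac

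**Figure D2:**
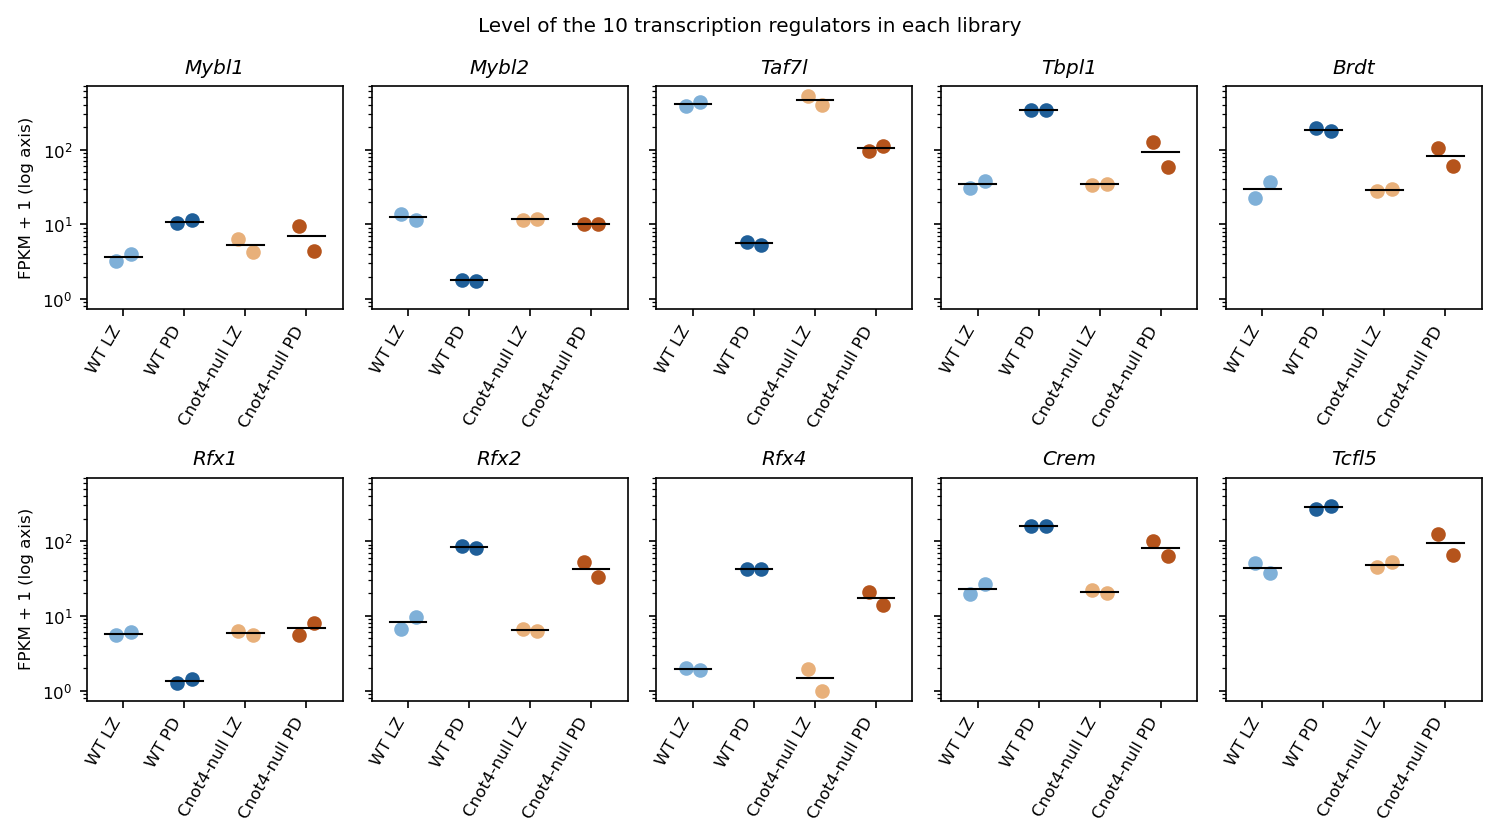
FPKM + 1 (log axis) of the 10 genes in the 8 libraries, 1 point per library, with a line at the mean of each group of 2. Mybl2, Taf7l and Rfx1 were lowest in WT PD, and the other 7 genes were highest there.

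The RFX factors bind the X-box of ciliary and flagellar genes. Rfx1 (chr8:86590735-86620891, plus strand) is broadly expressed, Rfx2 (chr17:56915320-56970431, minus strand) is needed for spermiogenesis, and Rfx4 (chr10:84218807-84369283, plus strand) is known from brain and testis. Rfx2 had FPKM 5.72 and 8.71 in WT LZ, 85.9 and 78.8 in WT PD, 5.68 and 5.36 in Cnot4-null LZ, and 50.97 and 31.6 in Cnot4-null PD. All LZ libraries were below 9, with Cnot4-null below WT, both WT PD libraries above 78, and Cnot4-null PD in between. It rose from LZ to PD in WT (log2 change 3.37, SE 0.29, adjusted p = 7.84e-05) and in Cnot4-null (log2 change 2.66, SE 0.29, adjusted p = 6.62e-04), and was lower in Cnot4-null at PD (log2 change -1.02, SE 0.29, adjusted p = 0.0220, -1.68 relative to the median). Its interaction was -0.71 (SE 0.41, adjusted p = 0.217).

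Rfx4 ran lower, at FPKM 1.01 and 0.863 in WT LZ, 41.9 and 41.7 in WT PD, 0.921 and 0 in Cnot4-null LZ, and 19.97 and 13.1 in Cnot4-null PD. The WT PD libraries were the highest, the Cnot4-null PD libraries came next, and no LZ library exceeded 1.01. It rose from LZ to PD in WT (log2 change 4.47, SE 0.36, adjusted p = 6.29e-05) and in Cnot4-null (log2 change 3.63, SE 0.36, adjusted p = 5.36e-04). At PD it was lower in Cnot4-null, with a log2 change of -1.32 (SE 0.36, adjusted p = 0.0196), -1.98 relative to the median, a call that was lost with a pseudocount of 0.1 (adjusted p = 0.255). Its interaction of -0.83 (SE 0.51, adjusted p = 0.242) took the other sign with that pseudocount (0.33), where the library listed at 0 weighs more.

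Rfx1 had the reverse order, with FPKM 4.47 and 5.04 in WT LZ, 0.258 and 0.414 in WT PD, 5.32 and 4.56 in Cnot4-null LZ, and 4.61 and 7.002 in Cnot4-null PD. The WT PD libraries were below 0.5, and the other 6 lay above 4 with their groups overlapping. Rfx1 fell from LZ to PD in WT (log2 change -2.11, SE 0.28, adjusted p = 4.84e-04). In Cnot4-null the change was 0.18 (SE 0.28, adjusted p = 0.624), and its sign turned with equal quantiles (-0.47) and equal medians (-0.31). At PD it was higher in Cnot4-null by 2.33 (SE 0.28, adjusted p = 7.17e-04), 1.67 relative to the median. The interaction was 2.28 (SE 0.39, adjusted p = 0.00686), and after quantile normalization 0.99 with an adjusted p of 0.115.
The promoters of the RFX genes are shown because 2 of them hold the letters of the X-box that their own products bind. Capitals mark GTTGCC for RFX proteins, CAGTTG for MYB proteins and TGACG for CREM. In Rfx1 (chr8:86590485-86590784, plus strand) CAGTTG and GTTGCC overlap, and TGACG occurs 3 times. In Rfx2 (chr17:56970382-56970681, minus strand) GTTGCC begins at base -116 from the start and TGACG at base -224. Of the 2 starts given for Rfx4, the one printed (chr10:84300643-84300942, plus strand) holds CAGTTG at base -40, and the other holds TGACG alone.
Rfx1: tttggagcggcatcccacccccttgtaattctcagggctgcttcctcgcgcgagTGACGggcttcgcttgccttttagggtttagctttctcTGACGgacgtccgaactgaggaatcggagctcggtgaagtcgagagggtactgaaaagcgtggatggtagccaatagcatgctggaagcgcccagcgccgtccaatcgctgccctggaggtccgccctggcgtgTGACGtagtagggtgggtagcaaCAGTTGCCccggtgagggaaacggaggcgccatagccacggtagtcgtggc
Rfx2: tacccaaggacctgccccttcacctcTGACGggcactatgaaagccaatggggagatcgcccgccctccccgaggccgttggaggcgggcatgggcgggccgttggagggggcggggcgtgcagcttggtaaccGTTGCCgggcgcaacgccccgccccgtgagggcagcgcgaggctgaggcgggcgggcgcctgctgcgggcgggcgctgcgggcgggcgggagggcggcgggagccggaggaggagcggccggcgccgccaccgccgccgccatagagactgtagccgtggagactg
Rfx4: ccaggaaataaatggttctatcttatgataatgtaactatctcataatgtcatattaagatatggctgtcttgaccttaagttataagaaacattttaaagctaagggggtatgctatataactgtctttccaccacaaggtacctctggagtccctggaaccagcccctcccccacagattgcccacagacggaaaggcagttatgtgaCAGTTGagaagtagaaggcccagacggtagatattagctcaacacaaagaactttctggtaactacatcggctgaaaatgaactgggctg

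Crem encodes a cAMP-responsive factor whose activator form switches on protamine and other spermatid genes. Its isoforms share 1 value here, so activator and repressor forms were not separated. Crem had FPKM 18.4 and 25.8 in WT LZ, 158 and 157 in WT PD, 20.97 and 19.1 in Cnot4-null LZ, and 98.7 and 62.8 in Cnot4-null PD. The LZ groups overlapped near 20, the WT PD libraries differed by less than 2, and the Cnot4-null PD libraries lay between. Crem rose from LZ to PD in WT (log2 change 2.79, SE 0.27, adjusted p = 1.19e-04) and in Cnot4-null (log2 change 1.93, SE 0.27, adjusted p = 0.00156). At PD its mean in Cnot4-null was 51.3% of WT (log2 change -0.99, SE 0.27, adjusted p = 0.0183, -1.65 relative to the median). The interaction was -0.87 (SE 0.38, adjusted p = 0.119).

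Tcfl5 (chr2:180356661-180377413, minus strand) encodes a bHLH factor of spermatocytes and round spermatids. Its FPKM was 49.8 and 36.1 in WT LZ, 270.4 and 294 in WT PD, 43.5 and 51.6 in Cnot4-null LZ, and 123 and 64.4 in Cnot4-null PD. The LZ groups overlapped, both WT PD libraries were above 260, and all others were at or below 123. Tcfl5 rose from LZ to PD in WT (log2 change 2.71, SE 0.32, adjusted p = 3.07e-04). In Cnot4-null the same step gave 0.90 (SE 0.32, adjusted p = 0.0551), which passed the test without Cnot4-null PD replicate 2 (1.36, adjusted p = 0.0103), with equal quantiles (adjusted p = 0.0321) and with equal summed FPKM (adjusted p = 0.0256). With equal medians it was 0.31 (adjusted p = 0.466), and without Cnot4-null PD replicate 1 0.44 (adjusted p = 0.186). At PD it was lower in Cnot4-null, with a log2 change of -1.65 (SE 0.32, adjusted p = 0.00537), -2.31 relative to the median. The interaction was -1.81 (SE 0.46, adjusted p = 0.0253), with adjusted p from 0.0550 (without WT LZ replicate 1) to 0.102 (without WT PD replicate 2) without 1 library of any group other than Cnot4-null PD.
Its promoter, at chr2:180377347-180377646, minus strand, is shown for CAGTTG, in capitals, which begins at base -140 from the start. It is the only promoter printed here of a gene that rose in WT and had an interaction past the threshold.
Tcfl5: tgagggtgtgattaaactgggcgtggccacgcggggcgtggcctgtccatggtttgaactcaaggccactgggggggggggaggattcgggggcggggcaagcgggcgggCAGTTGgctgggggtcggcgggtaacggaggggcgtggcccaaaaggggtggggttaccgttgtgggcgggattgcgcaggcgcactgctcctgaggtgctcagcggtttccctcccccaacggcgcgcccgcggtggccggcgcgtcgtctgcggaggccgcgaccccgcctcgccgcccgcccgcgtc

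Counted by comparison, all 10 genes passed the limma test at an adjusted p under 0.05 for PD against LZ in WT. There 7 were higher at PD, a direction in which 21.6% of all tested genes were called, and 3 were lower, against 36.2%. In Cnot4-null 5 were higher at PD, against 27.8% of all genes, 1 was lower, against 18.2%, and Mybl1, Mybl2, Rfx1 and Tcfl5 were not called. Between genotypes at LZ the counts were 0 and 0, with 0.0692% of all genes higher and 0.0252% lower in Cnot4-null. None of the 10 reached an unadjusted p under 0.05 there, and 1013 of all genes did. At PD 3 genes were higher in Cnot4-null, against 41.6% of all genes, and 6 were lower, against 11.5%. This comparison and that of the stages in WT share the WT PD libraries, so their values stand side by side only. The interaction was called for 3 genes with a positive sign, against 26.0% of all genes, and for 2 with a negative sign, against 3.97%. Scaling moved the share of all calls that were higher: 37.4% in WT became 54.7% with equal medians, 60.5% in Cnot4-null became 37.4% with equal quantiles and 39.1% with equal medians, and 86.8% of the interaction became 44.1% and 29.8%.

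Single libraries moved some of these counts, and in each such fit the share of all genes called moved in the same direction. In the main fit that share was 53.1% between genotypes at PD and 30.0% for the interaction. At PD, 5 genes (Mybl2, Taf7l, Rfx1, Tbpl1 and Tcfl5) were called between genotypes without either WT PD library or without Cnot4-null PD replicate 2, and all 10 without Cnot4-null PD replicate 1. The calls lost were those of Brdt, Crem, Rfx2 and Rfx4, with adjusted p from 0.0649 to 0.121 (without WT PD replicate 1). With no filter on low values 6 genes were called at PD, against 30.7% of all genes. Brdt, Rfx2 and Rfx4 were lost there with adjusted p from 0.0544 to 0.0558. With only the 4 PD libraries in the fit 6 were called, against 38.3% of all genes. Brdt, Crem and Rfx2 were lost in that fit with adjusted p from 0.0556 to 0.0640. The interaction was called for Mybl2, Taf7l and Rfx1 alone without any 1 of the WT LZ, WT PD or Cnot4-null LZ libraries, and for 8 genes without Cnot4-null PD replicate 1. With no filter the interaction was called for 3, against 14.5% of all genes, and Tbpl1 and Tcfl5 were lost (adjusted p = 0.0790 and 0.0780). After rescaling to the same median it was called for all 10, against 46.0% of all genes.

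**Figure D3:**
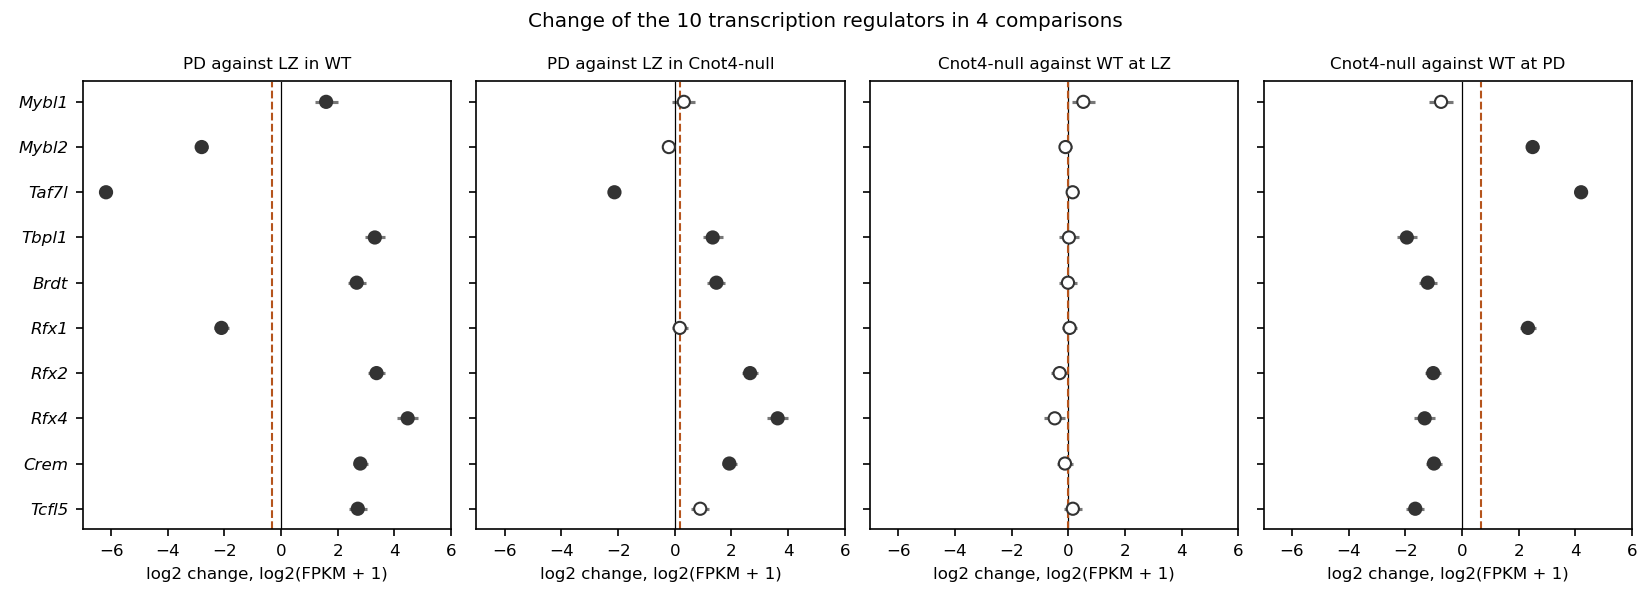
Log2 change of each gene in 4 comparisons, with bars for 1 SE, filled points for an adjusted p under 0.05 and open points otherwise. The dashed line is the median of all tested genes, which was 0.66 for Cnot4-null against WT at PD, where 3 genes were called to its right and 6 to the left of 0.

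The stage change in Cnot4-null was nearer to 0 than in WT for each of the 10 genes, as the plot of stage changes shows. The same held for 63.7% of all tested genes and for 89.00% of the 9190 genes called in WT, which were chosen by their change there. With a pseudocount of 0.1 it held for 9 of the 10, since Rfx4 then changed by 5.34 in WT and 5.67 in Cnot4-null. It was tested by the interaction, which passed for 5. No library is shared between the axes of that plot.

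**Figure D4:**
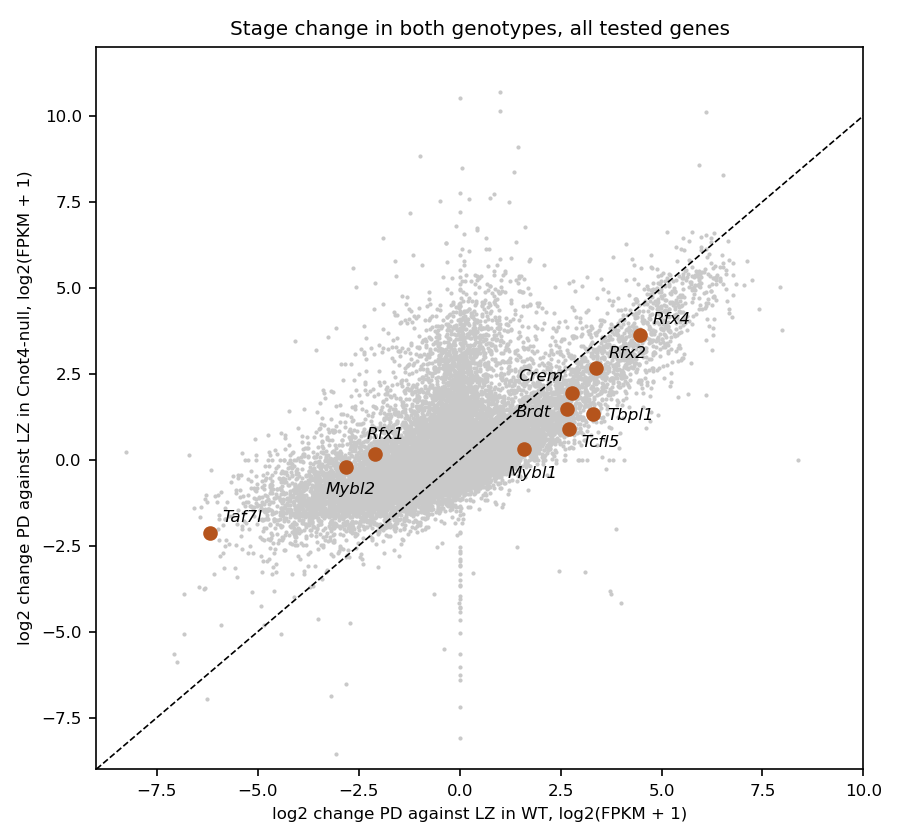
Log2 change from LZ to PD in WT (horizontal) and in Cnot4-null (vertical) of all 15899 tested genes in grey and of the 10 regulators in colour, with a dashed line of equal change. Taf7l lies at -6.18 and -2.13, and Rfx4 at 4.47 and 3.63.

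By level, which FPKM allows between genes, the order also changed. In WT LZ, Taf7l was the highest of the 10 at 406 ± 33.8 (SD, n = 2), followed by Tcfl5, Tbpl1, Brdt and Crem, whose neighbouring values overlapped, and then by Mybl2, Rfx2, Rfx1, Mybl1 and Rfx4 without overlap. In WT PD no neighbours overlapped, and the order was Tbpl1 at 334 ± 0.291 (SD, n = 2), Tcfl5, Brdt, Crem, Rfx2, Rfx4, Mybl1, Taf7l, Mybl2 and Rfx1 at 0.336 ± 0.110 (SD, n = 2). Cnot4-null LZ had the same order as WT LZ, with Rfx1 and Mybl1 overlapping. In Cnot4-null PD the first 5, Taf7l, Tcfl5, Tbpl1, Brdt and Crem, overlapped from one to the next between means of 103 and 80.7, and Rfx2, Rfx4 and Mybl2 followed without overlap before Mybl1 and Rfx1, which overlapped.

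Each gene was also compared with a relative in the same library. On the log2(FPKM + 1) scale the difference of Mybl1 over Mybl2 was -2.09 and -1.50 in WT LZ, 2.52 and 2.67 in WT PD, -0.86 and -1.47 in Cnot4-null LZ, and -0.06 and -1.21 in Cnot4-null PD. It was positive in WT PD only, and the Cnot4-null PD libraries overlapped the range of Cnot4-null LZ. For Taf7l over Taf7, the general TFIID subunit, it was 2.64 and 2.91 in WT LZ, -1.75 and -1.72 in WT PD, 2.98 and 2.78 in Cnot4-null LZ, and 1.30 and 1.68 in Cnot4-null PD. It was negative in WT PD only. For Tbpl1 over Tbp it was -0.93 and -0.65 in WT LZ, 0.92 and 0.85 in WT PD, -0.53 and -0.58 in Cnot4-null LZ, and 0.56 and -0.38 in Cnot4-null PD, and the Cnot4-null PD libraries took opposite signs.

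For Rfx2 over Rfx1 the difference was 0.30 and 0.68 in WT LZ, 6.11 and 5.82 in WT PD, 0.08 and 0.19 in Cnot4-null LZ, and 3.21 and 2.03 in Cnot4-null PD. WT PD was the highest and Cnot4-null PD came next, with no overlap between these and the LZ groups. The order of groups was the same for Rfx2 over Rfx3, at 1.09 and 1.29 in WT LZ, 5.77 and 5.51 in WT PD, 0.41 and 0.57 in Cnot4-null LZ, and 3.98 and 3.60 in Cnot4-null PD. For Crem over Creb1, a related factor of most cells, it was 1.05 and 1.53 in WT LZ, 5.17 and 4.90 in WT PD, 1.20 and 1.16 in Cnot4-null LZ, and 4.20 and 3.49 in Cnot4-null PD, with the Cnot4-null PD libraries below both WT PD libraries and above all LZ libraries. With a pseudocount of 0.1 in place of 1, the WT PD means moved to 3.48 for Mybl1 over Mybl2, -1.92 for Taf7l over Taf7, 7.58 for Rfx2 over Rfx1, 6.75 for Rfx2 over Rfx3 and 5.33 for Crem over Creb1. The means of Rfx2 over Rfx3 moved to 1.45 in WT LZ and 4.28 in Cnot4-null PD, and that of Crem over Creb1 to 1.26 in Cnot4-null LZ. The signs and the orders of groups given here were the same with either pseudocount. With 2 libraries per group none of these ratios was tested.

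**Figure D5:**
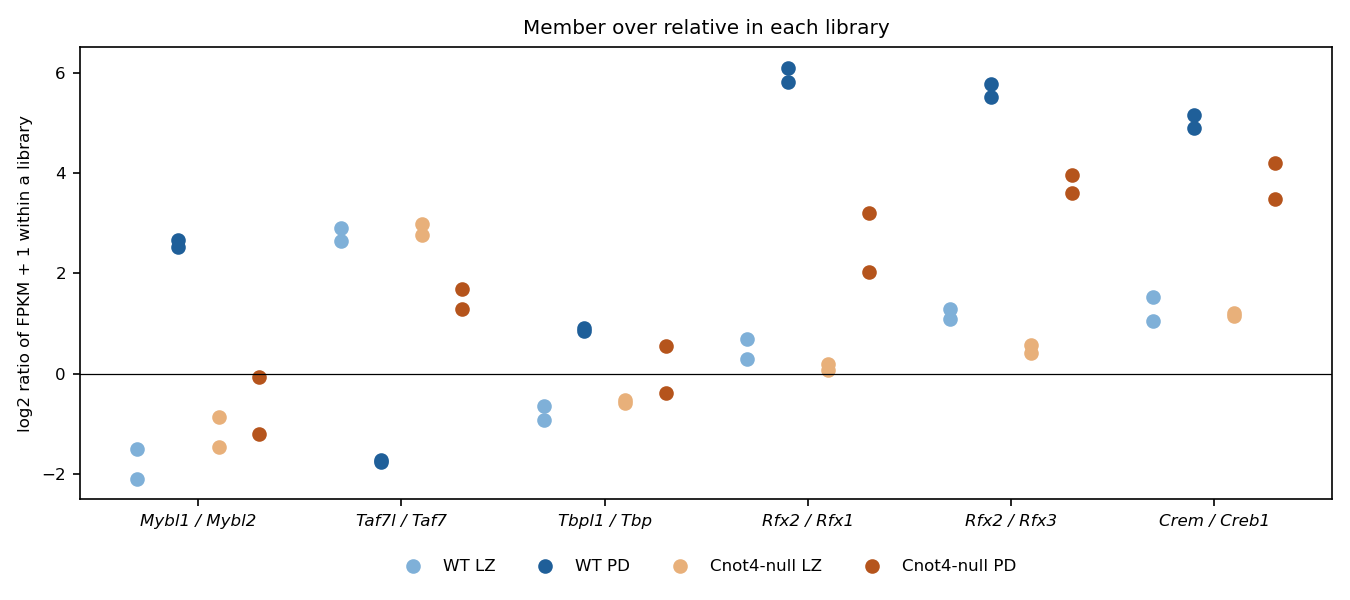
Log2 ratio of FPKM + 1 of a regulator over its relative within each library, 1 point per library, coloured by group. The WT PD points lie farthest from the LZ points for all 6 pairs, and the Cnot4-null PD points lie nearer to LZ than the WT PD points do.

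Relatives of the 10 genes were also compared between genotypes at PD, where the median of all genes was 0.66. Tbp had FPKM 56.9 and 58.6 in WT LZ, 176 and 185 in WT PD, 48.2 and 50.8 in Cnot4-null LZ, and 85.9 and 75.7 in Cnot4-null PD, highest in WT PD, and was lower in Cnot4-null at PD, with a log2 change of -1.15 (adjusted p = 0.00167). Taf7 was higher there by 0.97 (adjusted p = 0.00497), and Rfx3 by 0.84 (adjusted p = 0.0345). For Creb1 the value was 0.20 (adjusted p = 0.465), for Brd2 0.10 (adjusted p = 0.684) and for Atf1 0.45 (adjusted p = 0.0561).

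Subunits of TFIID and TFIIA were counted next in a list of 20 genes that were all tested. One of these, Taf5l, encodes a relative of TAF5 in the SAGA complex, and it was higher in Cnot4-null at PD by 1.72 (adjusted p = 0.00330). The counts of this and the next lists stand beside the shares and medians of all genes given above. From LZ to PD in WT 4 were higher and 11 lower of 20 tested (median log2 change -0.79), in Cnot4-null 2 were higher and 10 lower of 20 tested (median log2 change -0.64), and between genotypes at PD 7 were higher and 4 lower of 20 tested (median log2 change 0.03). Taf9, the most abundant, had FPKM 484 and 654 in WT LZ, 2539.5 and 2759 in WT PD, 595 and 503 in Cnot4-null LZ, and 1164 and 687 in Cnot4-null PD. The WT PD libraries were the highest, and Taf9 was lower in Cnot4-null at PD, with a log2 change of -1.56 (adjusted p = 0.00510). Gtf2a2, a TFIIA subunit, was lower, with -1.32 (adjusted p = 0.0169), and Taf10 differed by -0.49 (adjusted p = 0.240). Partners of the regulators, 7 genes for MuvB subunits and CREM cofactors, were counted at PD, where 2 were higher and 3 lower of 7 tested (median log2 change -0.22). Of MuvB, Lin9, Lin52 and Lin54 were lower in Cnot4-null at PD, with -1.35 (adjusted p = 0.0197), -1.69 (adjusted p = 0.0102) and -1.18 (adjusted p = 0.00791), and Rbbp4 and Lin37 differed by -0.22 (adjusted p = 0.418) and 0.57 (adjusted p = 0.111). Fhl5, which encodes ACT, the testis coactivator of CREM, had FPKM 5.70 and 10.5 in WT LZ, 9.10 and 8.20 in WT PD, 8.12 and 0.490 in Cnot4-null LZ, and 95.7 and 37.5 in Cnot4-null PD, highest in both Cnot4-null PD libraries, and was higher there by 2.66 (adjusted p = 0.0297).

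Other regulators of pachytene and spermatid genes formed a list of 9. From LZ to PD in WT 5 were higher and 1 lower of 9 tested (median log2 change 2.04), and in Cnot4-null 6 were higher and 0 lower of 9 tested (median log2 change 2.16). Between genotypes at PD 3 were higher and 1 lower of 9 tested (median log2 change -0.08). After rescaling to the same median 8 were called at PD, against 63.5% of all genes. Kctd19, a meiotic partner of ZFP541, had FPKM 7.22 and 8.23 in WT LZ, 134 and 124 in WT PD, 7.01 and 3.33 in Cnot4-null LZ, and 97.4 and 53.5 in Cnot4-null PD and a difference at PD of -0.83 (adjusted p = 0.0952). Ovol2, a zinc finger factor, was lower in Cnot4-null at PD, with a log2 change of -2.23 (adjusted p = 0.0221), and the bHLH gene Spz1 was higher by 2.55 (adjusted p = 0.0103). Regulators of spermatogonia and meiotic entry, 4 tested of 5, were all lower at PD in WT and all higher in Cnot4-null than in WT at PD, with medians of -5.19 and 4.52. From LZ to PD in Cnot4-null 0 were higher and 3 lower of 4 tested (median log2 change -1.17). Stra8, the gene of meiotic entry whose promoter drives the Cre, had FPKM 330.1 and 293 in WT LZ, 8.70 and 6.47 in WT PD, 614 and 355 in Cnot4-null LZ, and 228 and 149 in Cnot4-null PD. Its WT PD libraries stood alone below 10. Dmrt1 and Sohlh1, factors of spermatogonia, were higher in Cnot4-null at PD by 4.83 (adjusted p = 1.82e-04) and 4.61 (adjusted p = 1.21e-04).

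Genes linked to A-MYB, to RFX proteins and to CREM were counted as 3 lists. Genes known to need A-MYB are mostly of the piRNA pathway. In WT, at PD against LZ, 8 were higher and 1 lower of 11 tested (median log2 change 2.17), in Cnot4-null 6 were higher and 1 lower of 11 tested (median log2 change 1.06), and between genotypes at PD 1 was higher and 6 lower of 11 tested (median log2 change -0.82). Mael had FPKM 247 and 356 in WT LZ, 1278 and 1393 in WT PD, 311 and 317 in Cnot4-null LZ, and 611 and 374 in Cnot4-null PD, highest in WT PD, and was lower in Cnot4-null at PD, with a log2 change of -1.48 (adjusted p = 0.00542). Piwil1, the pachytene PIWI protein, had 14.02 and 3.86 in WT LZ, 229 and 215 in WT PD, 4.31 and 2.52 in Cnot4-null LZ, and 162 and 88.6 in Cnot4-null PD, with a difference of -0.88 (adjusted p = 0.194). Ddx39 gave -0.01 (adjusted p = 0.974).

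The RFX list holds ciliary genes with an X-box and the spermatocyte histone H1t. At PD against LZ in WT, 9 were higher and 0 lower of 10 tested (median log2 change 2.29), in Cnot4-null 7 were higher and 0 lower of 10 tested (median log2 change 1.27), and between genotypes at PD 0 were higher and 7 lower of 10 tested (median log2 change -0.91). Ift74 had FPKM 59.9 and 71.9 in WT LZ, 292 and 286 in WT PD, 85.9 and 65.7 in Cnot4-null LZ, and 202 and 107 in Cnot4-null PD. WT PD was highest, then Cnot4-null PD, then LZ, and the difference at PD was -0.97 (adjusted p = 0.0338). Spag6 and Spag16, proteins of the axoneme central pair, were lower in Cnot4-null at PD, with log2 changes of -2.15 (adjusted p = 0.00625) and -1.996 (adjusted p = 0.00567).

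Genes known to need CREM act mostly after meiosis. From LZ to PD in WT 2 were higher and 3 lower of 10 tested (median log2 change -1.12), in Cnot4-null 9 were higher and 0 lower of 10 tested (median log2 change 3.23), and between genotypes at PD 8 were higher and 0 lower of 10 tested (median log2 change 4.06). The list of 10 shares 5 genes with the 8 spermatid markers and 2 with the 8 pachytene and diplotene markers. Ldhc, one of the latter, had FPKM 147 and 254 in WT LZ, 10594 and 9725 in WT PD, 146 and 35.1 in Cnot4-null LZ, and 4585 and 1474 in Cnot4-null PD and a difference at PD of -1.96 (adjusted p = 0.0568). Prm1 had 911 and 612 in WT LZ, 176 and 74.8 in WT PD, 1991 and 240.2 in Cnot4-null LZ, and 7592 and 2949 in Cnot4-null PD, with the 2 Cnot4-null LZ libraries far apart, and was higher in Cnot4-null at PD by 5.35 (adjusted p = 0.00388). Prm2 was higher by 5.15 (adjusted p = 4.27e-04). Crem itself was lower at PD in Cnot4-null, while the sum of the spermatid markers was higher, and the part of spermatid RNA in the libraries was not tested.

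Among marker lists of germ cells, between genotypes at PD 8 were higher and 0 lower of 8 tested (median log2 change 4.35) for spermatids, and 7 were higher and 0 lower of 8 tested (median log2 change 3.47) for spermatogonia. Of leptotene and zygotene markers 4 were higher and 2 lower of 8 tested (median log2 change 1.01). Of pachytene and diplotene markers 0 were higher and 1 lower of 8 tested (median log2 change -1.13). After rescaling to the same median 8 were called, against 63.5% of all genes. After rescaling to the same summed FPKM 2 were called, against 53.6% of all genes. Tnp2, a transition protein gene of spermatids, was higher in Cnot4-null at PD by 5.65 (adjusted p = 0.00251). Uchl1 of spermatogonia was higher by 4.55 (adjusted p = 1.23e-04). Spo11 and Sycp3 were lower, with -1.63 (adjusted p = 0.0197) and -1.17 (adjusted p = 0.0409). Hspa2 and Insl6, both of pachytene cells, gave -1.06 (adjusted p = 0.0490) and -1.65 (adjusted p = 0.0991). Of the somatic markers, Insl3 gave 9.18 (adjusted p = 0.00102), Cyp17a1 6.48 (adjusted p = 6.63e-04), Hsd3b1 7.03 (adjusted p = 1.26e-04), Acta2 5.55 (adjusted p = 7.06e-04), Clu 3.50 (adjusted p = 7.33e-04) and Lyz2 3.25 (adjusted p = 0.0595). Values of the others named by the same rule were 2.76 (adjusted p = 0.00943) for Myh11, 1.76 (adjusted p = 0.0168) for Cdh5, 3.74 (adjusted p = 0.0271) for C1qa, 1.51 (adjusted p = 0.0204) for Cd68, 2.07 (adjusted p = 0.00724) for Gata4 and 0.25 (adjusted p = 0.664) for Cldn11.

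The genes with the most similar pattern were sought for the 9 regulators with a mean FPKM of at least 5, by Pearson correlation of log2(FPKM + 1) over the 8 libraries against 9347 other genes. These points share their libraries and groups, so the values are descriptions. For Taf7l the 3 nearest were Cstf2 (r = 0.999), Hmgb1 (r = 0.999) and Hccs (r = 0.999). Cstf2, a cleavage factor gene, had FPKM 26.3 and 29.4 in WT LZ, 0.494 and 0.198 in WT PD, 33.9 and 25.4 in Cnot4-null LZ, and 8.45 and 9.25 in Cnot4-null PD. Like Taf7l, Cstf2 and Hccs lie on chromosome X. For Mybl2 they were Bmp7 (r = 0.999), Enah (r = 0.999) and Smpd2 (r = 0.998), and for Mybl1 Cpeb2 (r = 0.992), Zfp42 (r = 0.990) and Ndufaf2 (r = 0.985). Cpeb2, an RNA-binding protein gene, had FPKM 9.83 and 11.4 in WT LZ, 28.7 and 29.97 in WT PD, 17.9 and 11.7 in Cnot4-null LZ, and 29.1 and 14.1 in Cnot4-null PD.

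Tbpl1 was nearest to the DNA polymerase gene Polb (r = 0.998), Ptpla (r = 0.997) and Tmem97 (r = 0.997). Polb had FPKM 62.3 and 73.1 in WT LZ, 269 and 259 in WT PD, 73.3 and 75.4 in Cnot4-null LZ, and 159.7 and 96.6 in Cnot4-null PD. Crem was nearest to Hyal6 (r = 1.000), 1700102P08Rik (r = 0.999) and 1700088E04Rik (r = 0.999). Rfx2 was nearest to Lca5l (r = 0.999), Lin7a (r = 0.999) and Fam20a (r = 0.999), and Lca5l had FPKM 1.94 and 3.62 in WT LZ, 67.4 and 69.5 in WT PD, 1.68 and 1.34 in Cnot4-null LZ, and 35.1 and 20.4 in Cnot4-null PD. For Rfx4 the nearest were 4930430A15Rik (r = 0.998), the kinase gene Hunk (r = 0.998) and Slc13a5 (r = 0.998). For Tcfl5 they were Hdlbp (r = 0.992), Rnf6 (r = 0.992) and Gm20337 (r = 0.991). For Brdt they were Pih1d2 (r = 0.998), Gorasp2 (r = 0.997) and Dynlt1a (r = 0.997), which has near-identical copies and an uncertain value.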

How the data were processed

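FPKM values per gene were deposited by the authors for 8 libraries. The authors trimmed the reads, aligned them to mm9 with TopHat 2.1.1 and quantified uniquely mapped reads on UCSC gene models with Cufflinks 2.2.1. The labels name a TruSeq kit and the study's methods name Smart-Seq2. From there, genes past 1 FPKM in any library were tested with limma 3.58.1 in R 4.3.3 on log2(FPKM + 1), in 1 model of 4 groups (4 residual degrees of freedom), a mean-variance trend and no block. P-values are two-sided, adjusted by Benjamini-Hochberg over all genes of a comparison and called under 0.05. They measure only the spread between these samples, which the methods call biological replicates, and an exact test of 2 against 2 cannot go below 0.333. The tables hold no counts, and the read totals that the study lists for each library were not used here, so counting error was not estimated. The code was tested on simulated data. Genes named are the regulators, Cnot4, the 3 genes of highest mean FPKM in each list and any used in a ratio, the MuvB genes, Taf5l, the 3 genes most correlated with each regulator, and the most abundant marker and those at 0. Leptotene and zygotene markers called between genotypes at PD are named too. The members and lists were chosen with earlier results of these data known. Gm4969 and Rhox5 were not analysed here, and Meiob was found as 4930528F23Rik. Alternatives were no filter, a mean FPKM of at least 5, a pseudocount of 0.1, 3 scalings, no trend, fewer libraries, a replicate block, a threshold of 0.01 and each library left out. Python 3.11.15 and matplotlib 3.10.9 made summaries and plots. Gene positions are from GENCODE on mm9.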

Additional observations from a re-analysis of the deposited data

Results flagged for a closer look

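The effect of genotype differed between the stages, by the interaction term, for 5 of the 10 regulators. Of all tested genes, 26.0% were called with a positive sign and 3.97% with a negative sign. On the log2(FPKM + 1) scale the effect at PD minus that at LZ was 4.05 for Taf7l, 2.60 for Mybl2, 2.28 for Rfx1, -1.97 for Tbpl1 and -1.81 for Tcfl5. The median over all tested genes was 0.64. Relative to it the values were 3.41, 1.95, 1.64, -2.61 and -2.45. The calls of Tbpl1 and Tcfl5 were lost with no filter and without 1 library of any group other than Cnot4-null PD. That of Rfx1 was lost after quantile normalization. Leydig and spermatid markers, and 7 of 8 spermatogonial markers, were higher than in WT PD in the Cnot4-null PD libraries that enter each of these values, and their part was not tested.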

How the results depend on the processing

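The 10 genes kept their sign for PD against LZ in WT and for Cnot4-null against WT at PD in every alternative in which they were tested, and Rfx1 was not tested with a mean FPKM of at least 5. The count called between genotypes at PD was 9, and 5 at an adjusted p under 0.01, and 5 to 10 with 1 library left out. The count called for the interaction was 5, and 3 with no filter, 3 at an adjusted p under 0.01, 10 with equal medians, and 3 to 8 with 1 library left out. The counts for PD against LZ were 9 to 10 in WT and 4 to 7 in Cnot4-null with 1 library left out, and 0 in every setting between genotypes at LZ. Of all genes, 53.1% were called between genotypes at PD, and 30.3% at an adjusted p under 0.01. For the interaction the share of all genes was 30.0%, and 14.5% with no filter, 10.7% at an adjusted p under 0.01 and 46.0% with equal medians. Where leaving out 1 library moved a count, this share moved in the same direction. A lone library was taken to vary like the other groups. Rescaling to the same summed FPKM was chosen after seeing the data. Signs turned for Mybl1 (-0.37 with equal quantiles, -0.15 with equal medians) and Rfx1 (-0.47 and -0.31) in the PD against LZ comparison in Cnot4-null, for Brdt (0.0265 after rescaling to the same median) and Tbpl1 (-0.0302 after rescaling to the same summed FPKM) between genotypes at LZ, and for the interaction of Rfx4 (0.33 with a pseudocount of 0.1). None of these was called before or after, and the cause was not tested. With 1 library left out, the LZ values ran from -0.24 to 0.0366 for Mybl2, -0.14 to 0.18 for Tbpl1, -0.0478 to 0.14 for Rfx1, -0.35 to 0.11 for Crem, -0.0699 to 0.38 for Tcfl5, -0.37 to 0.34 for Brdt and -0.0500 to 0.35 for Taf7l, and the Cnot4-null stage changes from -0.25 to 0.89 for Mybl1 and -0.0794 to 0.43 for Rfx1. With the replicate number as a replicate block the counts were 10, 6, 0, 9 and 5, the same as without it. Same-numbered libraries had correlations between deviations of -0.0651 to 0.194, and the labels do not say what a number shares.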

Other observations

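Taf7l lies on chromosome X, whose genes are largely silenced in pachytene spermatocytes as a known part of male meiosis, so the tested X-linked genes, Taf7l among them, were counted, a choice made after the values were seen. A chromosome was assigned from GENCODE to 15070 of the 15899 tested genes. From LZ to PD in WT, 398 of 640 X-linked genes were lower and 6 higher by limma, against 36.2% and 22.2% of 14420 autosomal genes, with a median log2 change of -1.77 against -0.31. In Cnot4-null 212 were lower and 125 higher, against 18.2% and 27.3% of autosomal genes, with medians of -0.33 and 0.17. At PD 477 were higher in Cnot4-null than in WT and 2 lower, against 40.5% and 11.9%, with medians of 1.96 and 0.61. X-linked genes held 2.37 and 2.46 in WT LZ, 0.244 and 0.221 in WT PD, 2.59 and 2.49 in Cnot4-null LZ, and 1.43 and 1.93 in Cnot4-null PD percent of the summed FPKM.

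In the list of 20 genes for TFIID and TFIIA, Taf1 and Taf9b are the X-linked ones. Taf1, the largest TFIID subunit, had FPKM 31.5 and 26.00 in WT LZ, 0.489 and 0.373 in WT PD, 34.4 and 30.5 in Cnot4-null LZ, and 9.66 and 14.1 in Cnot4-null PD. Taf9b, a relative of TAF9, had FPKM 72.2 and 78.1 in WT LZ, 1.44 and 1.57 in WT PD, 80.7 and 72.97 in Cnot4-null LZ, and 27.05 and 32.95 in Cnot4-null PD. Both were lowest in WT PD, and Cnot4-null PD lay between WT PD and the LZ groups with no overlap. Cnot4-null was higher at PD by 3.15 (adjusted p = 2.13e-04) for Taf1 and 3.62 (adjusted p = 9.49e-05) for Taf9b. RNA of other cells moved with this comparison, as the Leydig, spermatid and spermatogonial markers show, and its part was not tested.

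The main limits are these. Each group had 2 libraries, and both Cnot4-null PD libraries carry every comparison at that stage. They held markers of Leydig, peritubular and spermatid cells and of spermatogonia at higher levels than WT PD. The labels do not say whether both genotypes were sorted with the same gates. The all-gene median differed between the genotypes at PD, and scaling moved it. FPKM gives 1 value per gene, so isoforms were not separated. The regulators' proteins and their binding were not analysed here.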
